A study of Mus musculus with 4 samples.

Results

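The plasminogen activator system was described through 5 genes: Plau, which encodes the urokinase-type activator; Plat, the tissue-type activator; Plaur, the cell-surface receptor of urokinase; Serpine2, protease nexin-1; and Serpinf1, pigment epithelium-derived factor. The members are all non-control probes whose gene name in the scanner files is 1 of these 5, which gave 10 of 41174 probes. They are 2 probes of Plau, 3 of Plat, 2 of Plaur, 1 of Serpine2 and 2 of Serpinf1. The cells were C2C12, a mouse muscle precursor line in long use, whose cells stop dividing and fuse into myotubes in low serum. Follistatin-treated cells were given human recombinant follistatin 288, a secreted protein that binds activins and myostatin, at 200 ng/ml once in 24 h over 6 days of differentiation, and untreated cells differentiated for the same 6 days without it. Cells had been grown to 80% confluence before the change to differentiation medium, for which the labels name 2% horse serum in one place and 10% in another. Each of 4 biological replicates was 1 two-colour array, with the follistatin-treated RNA in Cy3 and the untreated RNA in Cy5 on every array, so that a dye effect of a probe and the effect of follistatin cannot be told apart. The labels use the term dye swap for each of these arrays and mean this orientation by it, and the channel labels of every sample give the same one. The model is a single cell line, and the labels do not describe how the replicate cultures were separated.

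Both activators are secreted serine proteases that cut plasminogen into plasmin, a protease that degrades fibrin and matrix proteins and can activate growth factors held in the matrix. Urokinase works mainly at the cell surface, where Plaur anchors it, whereas the tissue-type activator is best known for binding fibrin. Serpins with inhibitor function trap their target protease in a covalent complex: Serpine2 inhibits thrombin, urokinase, the tissue-type activator and plasmin. Serpinf1 has the serpin fold but is not known to inhibit proteases and acts as a secreted factor on vessels and neurons. In muscle, urokinase-driven proteolysis is known for its part in myoblast migration and regeneration.

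The following probe stretches are shown because some of the ratios below were read on them. They are 1 for each gene, in mm9 and 5′ to 3′ on the transcript strand. For Plau, Plaur and Serpinf1 the stretch is that of the dimmer probe. The Plat stretch is the first 48 bases of a 60-base probe that is not the brightest of that gene. In the Plat stretch the capitals mark the stop codon at its end, and the other stretches have no capitals.
Plau: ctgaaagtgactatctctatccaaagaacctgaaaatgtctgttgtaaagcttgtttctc
Plat: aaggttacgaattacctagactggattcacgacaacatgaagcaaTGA
Plaur: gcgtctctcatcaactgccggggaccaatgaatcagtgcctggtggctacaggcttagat
Serpine2: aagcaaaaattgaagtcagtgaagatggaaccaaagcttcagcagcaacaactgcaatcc
Serpinf1: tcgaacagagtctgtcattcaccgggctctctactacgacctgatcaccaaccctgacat
The Plau stretch is a whole 60-base probe on the plus strand of chromosome 14, whose coordinates, chr14:21659855-21660221, run over 367 bases and so skip an intron of 307 bases. The Serpine2 probe lies on the minus strand at chr1:79793476-79796093, over 2618 bases, and skips an intron of 2558 bases. Both therefore read spliced exonic RNA. The Plat stretch lies at chr8:23892531-23892578 on the plus strand, the Plaur probe at chr7:25259315-25259374 on the plus strand and the Serpinf1 probe at chr11:75229163-75229222 on the minus strand.

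Processed signals, in the scanner software's fluorescence units, are given for follistatin-treated and then untreated cells. A ratio is the log2 of the follistatin signal over the untreated signal of the same array, so that 1 is a doubling. The software marked the follistatin channel of all 10 probes as well above background on 4 of 4 arrays, and the untreated channel of 9 of them. All 10 probes passed the filter on dim probes, under which 27011 probes were tested: 1 of the channels had to be well above background on 3 or more arrays. RNA of whole cultures was measured, in which fewer cells of a type and less RNA per cell cannot be told apart. limma called 0 of the 10 member probes at an adjusted p under 0.05, against 0% of all tested probes called higher and 0.0074% called lower. The 2 lower probes were those of Ces3b and Olfr1299, named after their values were seen. At an unadjusted p under 0.05, 5 of the 10 member probes were higher and 0 lower, where 9.94% of all tested probes were higher and 10.8% lower. They were both probes of Plau and 1 each of Plat, Plaur and Serpine2, so these 5 probes share 4 genes. The members were chosen with earlier results of these data known. The shares given for them therefore describe these probes only.

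The mean ratio was positive for 8 of 10 member probes, compared with 51.3% of all tested probes. This share and those that follow also describe the chosen members only. The median mean ratio was 0.515 over the member probes and 0.0141 over all tested probes, on the log2 scale. A mean above the 1.6-fold minimum of the study's methods was reached by 3 of the 10 and by 6.49% of all tested probes, and a mean as far down by 0 of the 10 and by 9.34% of all tested probes. The ratio was positive on 4 of 4 arrays for 4 of the 9 member probes measured on all arrays, compared with 13.7% of all probes. These were both probes of Plau and 1 each of Plaur and Serpine2. The ratio was negative on 4 of 4 arrays for 0 of the 9, compared with 14.5% of all probes. Follistatin signals lay wholly above untreated signals for 2 of the 9, compared with 6.7% of all probes. They lay wholly below for 0 of the 9, compared with 6.76% of all probes. Serpine2 and 1 probe of Plaur were the pair without overlap. An exact sign permutation over 4 arrays cannot give a two-sided p below 0.125, so single probes have no such test.

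**Figure D1:**
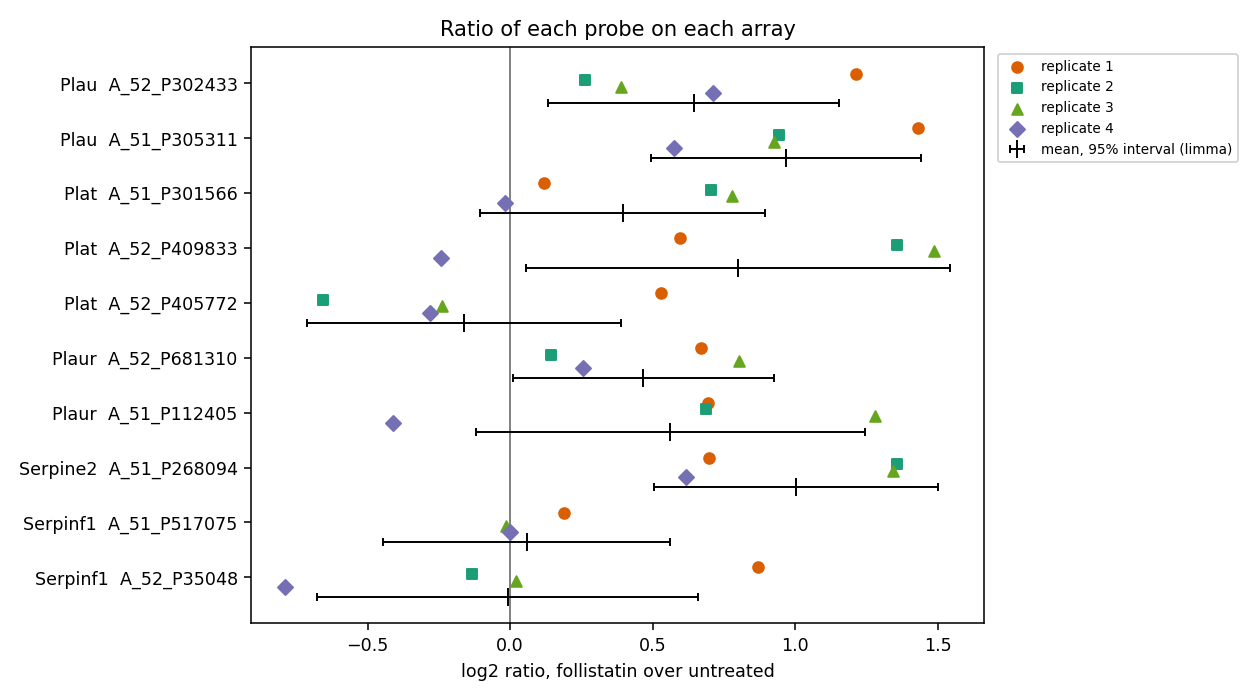
Log2 ratio of follistatin over untreated (x axis) for each of the 10 probes (rows, by gene), with 1 point for each replicate array and a black bar for the limma mean with its 95% interval. Plau, Serpine2 and the upper Plaur probe lie right of 0 on all 4 arrays, and the 2 Serpinf1 probes have means near 0.

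Plau, the urokinase gene, had higher follistatin than untreated signals on every array with both of its probes. The brighter probe, A_52_P302433, lies at chr14:21662242-21662301 in mm9. It read 499, 1187, 1297 and 1775 units in follistatin-treated cells of replicates 1 to 4, against 215, 989, 991 and 1085 units in untreated cells. Replicate 1 was the lowest array in both channels, and over the 4 arrays the channels overlapped, since untreated signals of replicates 2, 3 and 4 exceeded the follistatin signal of replicate 1. Its ratios were 1.21, 0.26, 0.39 and 0.71, with a mean of 0.64 (SE 0.21, n = 4; 95% interval 0.13 to 1.15), or 1.56-fold. The limma p was 0.0209 before adjustment and 0.175 after it.

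The second Plau probe, the one across the splice junction, was dim. It read 68.9, 116, 131 and 122 units in follistatin-treated cells, against 25.5, 60.1, 68.8 and 82.2 units in untreated cells. The untreated spot of replicate 1 was not well above background, so the ratio of 1.43 on that array has a denominator near background, and the ratios of the other arrays were 0.94, 0.93 and 0.58. The mean was 0.97 (SE 0.20, n = 4; 95% interval 0.50 to 1.44), with a limma p of 0.00205 before adjustment and 0.107 after it. With a normexp background correction and loess in place of the scanner software's processing the mean of this probe was 0.27 (adjusted p = 0.209), while without replicate 1 it was 0.82 (adjusted p = 0.188). The 2 Plau probes thus had the same sign on each array and differed in size, by a mean of -0.33 ± 0.36 (SD, n = 4) on the log2 scale, brighter minus dimmer.

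Plat, the tissue-type activator, split by probe and by array. Its brightest probe, A_51_P301566 at chr8:23893092-23893152, read 7214, 9179.9, 9999 and 5950.3 units in follistatin-treated cells, against 6650.4, 5632, 5827 and 6030.2 units in untreated cells. The untreated level was nearly level over the arrays, and the follistatin level was above it on replicates 1, 2 and 3 and just below it on replicate 4. The ratios were 0.12, 0.70, 0.78 and -0.019, and the mean was 0.40 (SE 0.21, n = 4; limma adjusted p = 0.324). The stop-codon probe, A_52_P409833, read 2721, 4206, 5578 and 1857 units in follistatin-treated cells, against 1801, 1641, 1992 and 2195 units in untreated cells. The order of the arrays was the same in the follistatin channel but not in the untreated one. The channels again crossed on replicate 4, with ratios of 0.60, 1.36, 1.49 and -0.24. The mean was 0.80 (SE 0.31, n = 4, 95% interval 0.054 to 1.54, limma adjusted p = 0.220).

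The third Plat probe did not follow these. A_52_P405772, at chr8:23886301-23886360, was designed on a RIKEN clone and was the dimmest of the 3, with 67.5, 52.1, 46.2 and 84.7 units in follistatin-treated cells and 46.7, 82.2, 54.5 and 103 units in untreated cells. The channels overlapped, and the follistatin signal was the higher one on replicate 1 alone. Its mean ratio was -0.16 (SE 0.23, n = 4; limma adjusted p = 0.709). The stop-codon probe minus this probe differed by 2.02 and 1.72 on replicates 2 and 3, and by 0.065 and 0.040 on replicates 1 and 4. On the plus strand it lies before the stop-codon probe and the brightest probe. Yet it starts at base 3677 of its transcript record, where those probes start at bases 1742 and 2303. It was thus placed on a different transcript record from theirs. Which Plat RNA it reads was not tested.

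Plaur, the urokinase receptor, was higher in follistatin-treated cells on average with both probes. Its brighter probe, A_52_P681310 at chr7:25260569-25260628, read 2995, 2533, 4043 and 2757 units in follistatin-treated cells, against 1883, 2295, 2316 and 2311 units in untreated cells. The lowest follistatin signal exceeded the highest untreated signal. The ratios were 0.67, 0.14, 0.80 and 0.26, with a mean of 0.47 (SE 0.19, n = 4; 95% interval 0.0093 to 0.93), or 1.38-fold, and a limma p of 0.0466 before adjustment and 0.235 after it.

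The other Plaur probe, A_51_P112405, disagreed with it on replicate 4. It read 1032, 1142, 1920.5 and 806 units in follistatin-treated cells, against 637, 709, 791 and 1072 units in untreated cells. Follistatin signals were above untreated ones on replicates 1, 2 and 3 and below on replicate 4, where the untreated channel was at its highest. The mean was 0.56 (SE 0.29, n = 4; limma adjusted p = 0.309), and it moved to 0.89 without replicate 4 (adjusted p = 0.0813) and to 0.32 without replicate 3 (adjusted p = 0.793).

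Serpine2, the protease nexin that inhibits both activators, had the highest mean ratio of the 10 probes with the reported processing, although a probe of Plau or Plat was higher under 5 of the 12 alternatives. Its single probe read 269, 457, 479 and 307 units in follistatin-treated cells, against 166, 178, 189 and 200.3 units in untreated cells. The untreated values lay within a narrow band and every follistatin value lay above all of them, with replicates 2 and 3 the highest. The mean was 378 ± 106 units in follistatin-treated cells and 183 ± 14.7 units in untreated cells (SD, n = 4 each). The ratios of 0.70, 1.36, 1.34 and 0.62 gave a mean of 1.00 (SE 0.21, n = 4; 95% interval 0.50 to 1.502), or 2.00-fold. The limma p was 0.00225 before adjustment and 0.107 after it. With normexp and loess the mean ratio was 0.63 (adjusted p = 0.107). The scanner software's own p per array, which compares the 2 channels of 1 array and not the conditions, was under 0.01 on 4 of 4 arrays for Serpine2 alone among the 10 probes, compared with 0.596% of all tested probes on which that held with positive ratios.

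Serpinf1, the non-inhibitory serpin, did not separate the channels. Its very bright probe, A_51_P517075 at chr11:75223568-75223627, read 95563, 87054 and 76641 units in follistatin-treated cells of replicates 1, 3 and 4, against 83814, 87887 and 76758 units in untreated cells. The spot of replicate 2 was marked as non-uniform by the scanner software and was left out of the fit, and its signals were 43285 units in follistatin-treated and 60987 units in untreated cells. The ratios were 0.19, -0.014 and -0.0022, with a mean of 0.058 (SE 0.20, n = 3; 95% interval -0.45 to 0.56; limma adjusted p = 0.889). The second probe, A_52_P35048, read 12757, 8354, 10181 and 5797 units in follistatin-treated cells, against 6979, 9157, 10042 and 10033 units in untreated cells. It was higher by 0.87 on replicate 1, lower on replicate 4 at -0.79 and close to 0 on replicates 2 and 3, which gave a mean of -0.0085 (SE 0.28, n = 4; 95% interval -0.68 to 0.66).

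**Figure D2:**
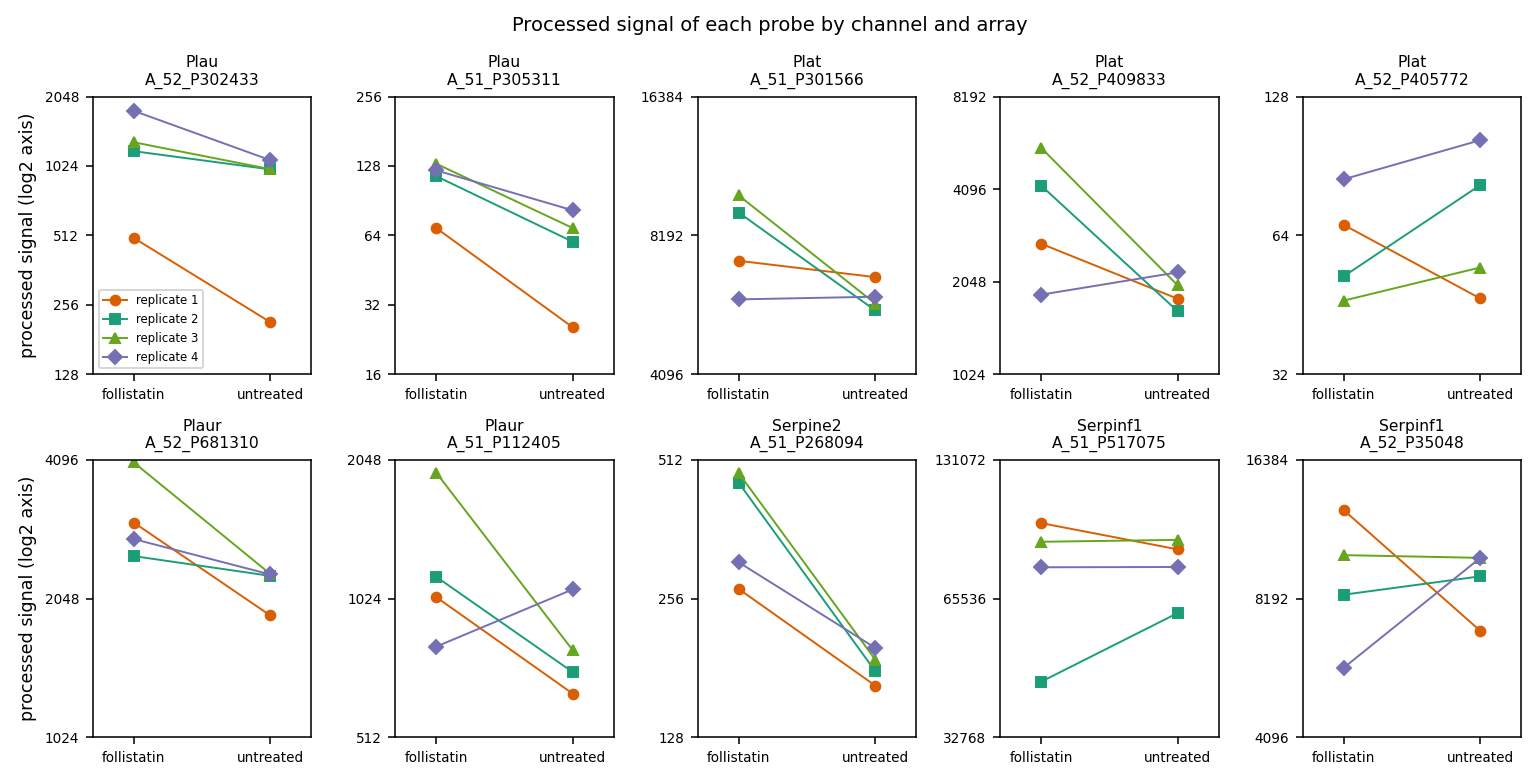
Processed signal (y axis, fluorescence units on a log2 axis that differs between panels) of each probe in the follistatin channel (left of each panel) and the untreated channel (right), with 1 line for each replicate array. Every line falls to the right for both Plau probes, the first Plaur probe and Serpine2; the Serpinf1 spot of replicate 2 in panel A_51_P517075 is drawn but was left out of the fit.

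The median ratio of the member probes was lower on replicate 4, the array on another slide, but the brighter Plau probe did not follow this. Replicates 1, 2 and 3 were on 1 slide and replicate 4 was on another, read with a later version of the scanner software. The number of member probes with a positive ratio was 10 of 10 on replicate 1, 7 of 9 on replicate 2, 8 of 10 on replicate 3 and 4 of 10 on replicate 4. The median ratio of the member probes was 0.68, 0.69 and 0.79 on the first 3 arrays and -0.011 on replicate 4, while 48.7% to 51.7% of all tested probes were positive on each array. On the first slide alone, the mean ratios were 1.13 for Serpine2 (adjusted p = 0.0667), 1.101 for the dimmer Plau probe (adjusted p = 0.0657), 0.62 for the brighter one (adjusted p = 0.184), 1.15 for the stop-codon probe of Plat (adjusted p = 0.0723) and 0.54 for the brighter Plaur probe (adjusted p = 0.176), each from limma. Over the alternatives in which each probe was tested, the adjusted p of limma or the methods' t-test ran from 0.0667 to 0.423 for Serpine2. It ran from 0.0657 to 0.405 for the dimmer and from 0.162 to 0.61 for the brighter Plau probe. It ran from 0.0723 to 0.655 for the stop-codon probe of Plat and from 0.176 to 0.706 for the brighter Plaur probe. The dimmer Plau probe was tested in 10 alternatives, the stop-codon probe of Plat in 11 and the others in 12. The dimmer Plau probe was not tested with both channels required above background. On replicate 4, where there is no test, the ratios were 0.62 for Serpine2, 0.58 for the dimmer and 0.71 for the brighter Plau probe. They were -0.24 for the stop-codon probe of Plat and 0.26 for the brighter Plaur probe. Slide, software version and replicate culture cannot be told apart here.

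The arrays also resembled each other unequally. Across all tested probes, which are not independent replicates, r was 0.817 (rho = 0.806) between the ratios of replicates 2 and 3, and 0.0379 to 0.318 for every other pair of arrays. Between replicates 2 and 3 the member probes differed by a root-mean-square of 0.337 on the log2 scale, and by 0.656 to 0.905 between the other pairs. Plat and Serpine2 had their 2 highest ratios on these 2 arrays, except for the RIKEN-clone probe, whereas both Plau probes were highest on replicate 1. With replicates 2 and 3 averaged and counted as 1 array, the number of member probes that were higher at an unadjusted p under 0.05 was 3, where 4.69% of all tested probes were higher in that fit, and the means were 0.89 for Serpine2 (limma adjusted p = 0.313), 0.75 for the brighter and 0.98 for the dimmer Plau probe (adjusted p of 0.388 and 0.290).

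**Figure D3:**
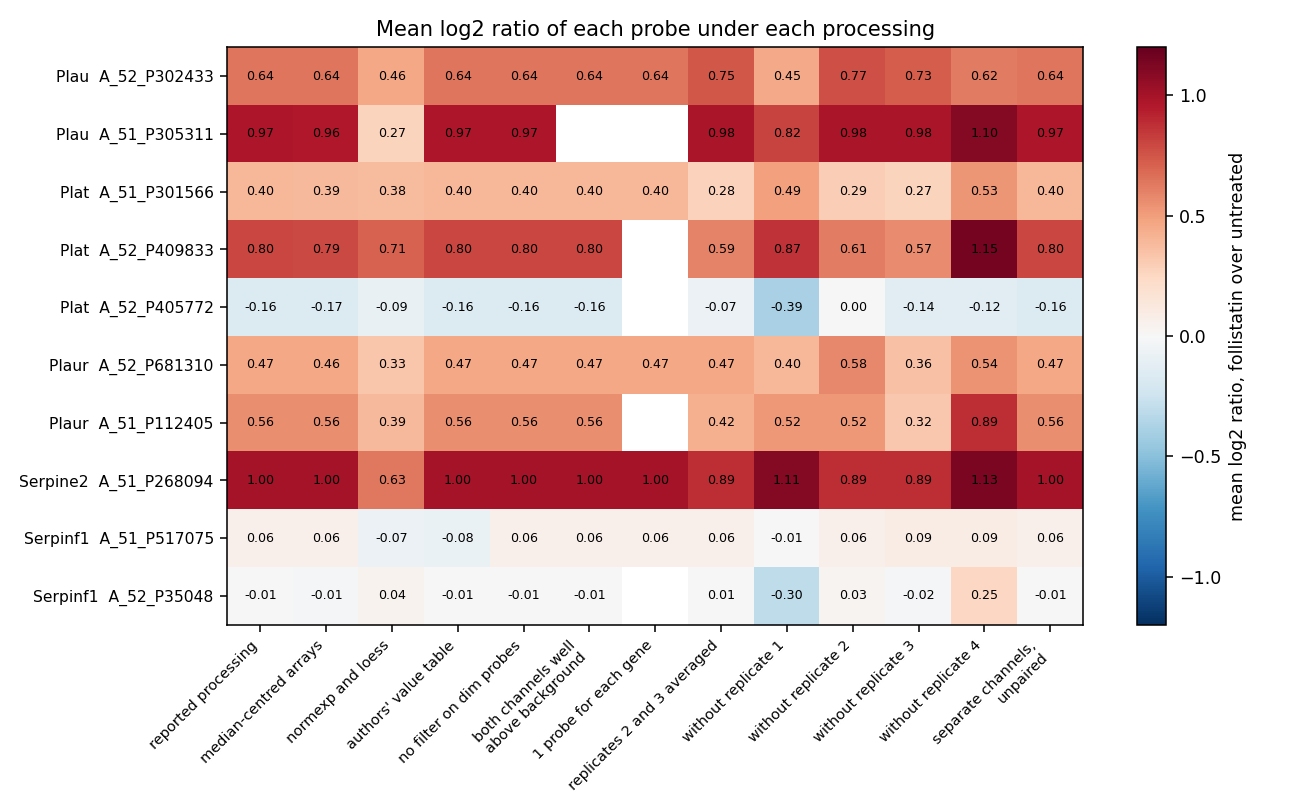
Mean log2 ratio of follistatin over untreated (colour and number) for each probe (rows) with the reported processing (first column) and each alternative (other columns); blank cells were not tested under that setting. The 5 probes of Plau, Plaur and Serpine2 and the upper 2 of Plat are positive in every cell tested, from 0.27 to 1.15, and both Serpinf1 probes change sign.

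The promoters of 3 of the 5 genes, the 250 bases before the transcript start, matched the RefSeq table of GRCm38.p6. Those of Plaur and Serpine2 are shown because these genes had the probes whose channels did not overlap. Capitals mark TGANTCA, with any base at N, a pattern that takes in the letters bound by AP-1 factors. They also mark GGGCGG, the GC box of Sp1 factors, and both were sought on either strand.
Plaur, chr7:24462233-24462482, plus strand: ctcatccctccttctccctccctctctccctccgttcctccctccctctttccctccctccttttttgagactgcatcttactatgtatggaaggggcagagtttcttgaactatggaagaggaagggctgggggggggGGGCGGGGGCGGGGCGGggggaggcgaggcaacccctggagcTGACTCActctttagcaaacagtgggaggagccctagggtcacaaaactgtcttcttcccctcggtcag
Serpine2, chr1:79858666-79858915, minus strand: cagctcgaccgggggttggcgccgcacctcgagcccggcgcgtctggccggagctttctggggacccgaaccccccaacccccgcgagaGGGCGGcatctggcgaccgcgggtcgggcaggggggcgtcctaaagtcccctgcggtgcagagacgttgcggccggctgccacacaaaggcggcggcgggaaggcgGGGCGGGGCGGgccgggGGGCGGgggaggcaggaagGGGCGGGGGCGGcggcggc
The Plaur promoter holds 1 match to the AP-1 letters, which starts 69 bases before the transcript start, and 3 adjoining or overlapping GC boxes, starting between 111 and 100 bases before it. The Serpine2 promoter holds 0 matches to the AP-1 letters and 6 GC boxes, some of them overlapping. The Serpinf1 promoter holds 0 of either. Of 32851 promoter windows of this length, 6.7% hold TGANTCA with any base at N, and 32.7% a GC box. The TATA box letters TATAAA, found in 12.4% of the windows, have 0 matches in these 3 promoters. The E-box letters CANNTG, found in 66.2%, have 0 matches in Plaur, 1 in Serpine2 and 4 in Serpinf1. A match describes letters and is not a measured binding site.

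The other genes of the plasminogen system were taken from a list of 24, chosen with earlier results of these data known. The shares given for it therefore describe the list only. It had 17 tested genes, each read by its brightest probe. limma called 0 of the 17 at an adjusted p under 0.05, and 4 were higher and 0 lower at an unadjusted p under 0.05, where 9.14% of 14992 genes were higher and 7.58% lower. The mean ratio was positive for 14 and negative for 3 of the 17, compared with 51.8% positive over all genes, and the median was 0.27 against 0.0163. Ratios were positive on 4 of 4 arrays for 4 of the 17, compared with 14.1% of all genes. They were negative on 4 of 4 arrays for 1, where 14.5% of all probes measured on all arrays were. Plg, plasminogen itself, Vtn, Serpinb2, Serpini1, Serpina5, F12 and Klkb1 were on the array and did not pass the filter on dim probes.

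Serpinf2, the plasmin inhibitor of plasma, was at -0.26 (SE 0.18) and negative on 4 of 4 arrays, at signals of 43.2 units in follistatin-treated and 51.2 units in untreated cells. Of the plasminogen receptors, Plgrkt was at 0.29 (SE 0.20), S100a10 at 0.069 (SE 0.20), its partner Anxa2 at -0.10 (SE 0.21) and Eno1, an enolase that also binds plasminogen at the cell surface, at 0.63 (SE 0.28). Eno1 was positive on 4 of 4 arrays, from 0.077 on replicate 2 to 1.62 on replicate 1. The clearance receptor Lrp1, which takes up activator and serpin complexes, was at 0.63 (SE 0.26) and positive on 4 of 4 arrays, but its other probe was at -1.08. Mrc2, the collagen receptor that associates with Plaur, was at 0.27 (SE 0.20), with 3 probes from 0.23 to 1.69.

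Among growth factors activated by these proteases, Pdgfc was the highest of the list at 0.64 (SE 0.25; limma adjusted p = 0.223), with ratios of 0.66, 1.03, 1.05 and -0.19. Hgf was the lowest at -0.39 (SE 0.23), although its 4 probes ran from -0.39 to 1.21. F2r, the thrombin receptor, was named after its values were seen: it was at 0.63 (SE 0.19; adjusted p = 0.157) with ratios of 0.30, 1.03, 0.70 and 0.49.

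The other serpins, from a list of 13 that was also chosen with earlier results known, had 9 tested genes. limma called 0 of the 9, and 3 were higher and 0 lower at an unadjusted p under 0.05, where 9.14% of all genes were higher and 7.58% lower. The mean ratio was positive for 8 of the 9, compared with 51.8% of all genes, with a median of 0.25, and 4 were positive on 4 of 4 arrays, compared with 14.1% of all genes. Serping1, the inhibitor of complement C1 proteases, was the highest at 0.86 (SE 0.22; adjusted p = 0.126) with ratios of 1.52, 0.68, 0.62 and 0.62. Serpinb8 was next at 0.54 (SE 0.17; adjusted p = 0.168), positive on 4 of 4 arrays. Serpinc1, antithrombin, was at 0.073 (SE 0.17) and Serpinh1, the collagen chaperone, was the lowest at -0.32 (SE 0.29), split between 0.23 and 0.38 on replicates 2 and 3 and -0.85 and -1.05 on replicates 1 and 4.

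**Figure D4:**
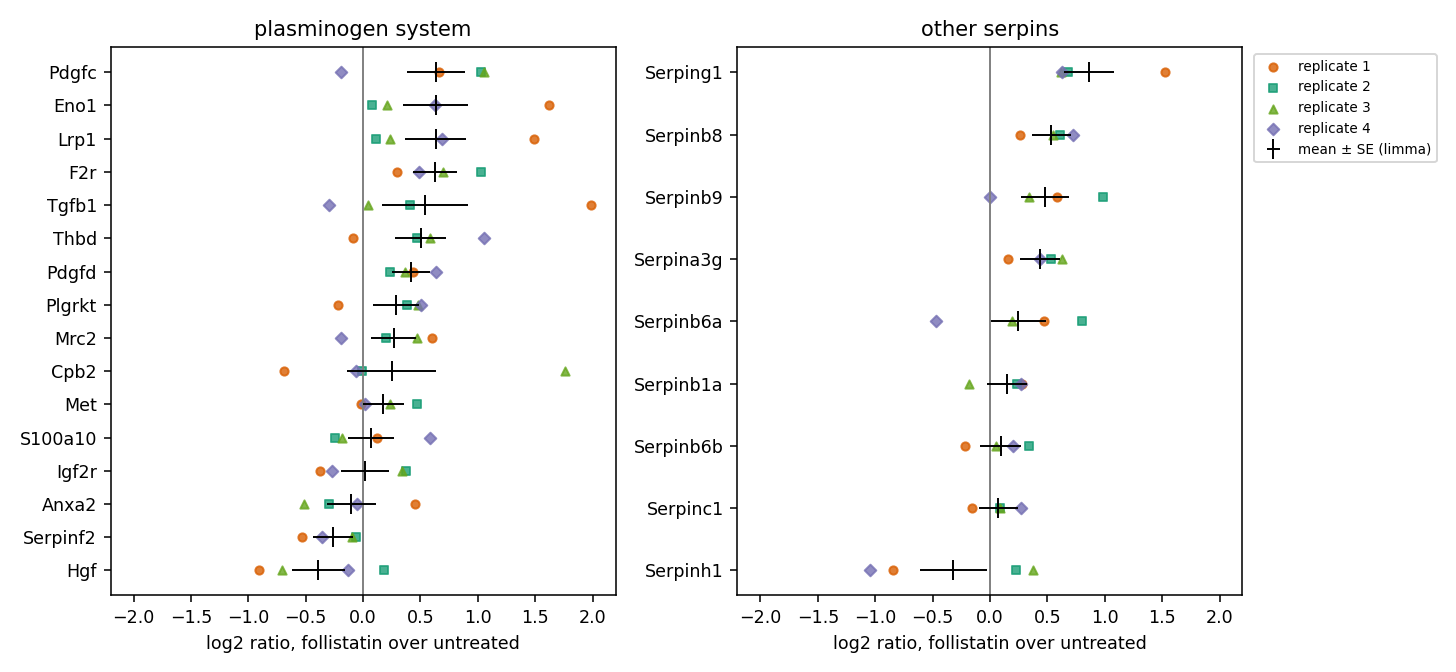
Log2 ratio of follistatin over untreated (x axis) for the genes shown of the plasminogen system list (left) and of the other serpins list (right), with 1 point for each replicate array and a black bar for the limma mean ± SE. Most means lie right of 0, 8 of 9 of them on the right, and single arrays scatter widely for Tgfb1.

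The genes whose ratios lay closest to those of a member over the arrays were taken by the root-mean-square difference, among 12714 named genes whose 2 channels were measured above background throughout. For Serpine2 they were Fgf10, Mphosph8 and Usp45, at differences of 0.0518, 0.0748 and 0.131. For the brighter Plau probe they included Scd2 and Fkbp10, at 0.0958 and 0.0978, for the brightest Plat probe Prkd3, Tmed4 and Fbxo22, at 0.0289 to 0.0583, and for the brighter Plaur probe Nat10, Gmip and Arhgef18, at 0.0979 to 0.109. The bright Serpinf1 probe, on 3 arrays, was closest to Taf9, Tbc1d1 and Shroom2, at 0.0296 to 0.0312. The likeness rests on 4 arrays or fewer and is a description.

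The labelled cell type was checked on 8 markers of skeletal myoblasts and myotubes, Myod1, Myog, Des, Acta1, Ckm, Myh3, Tnnt3 and Chrna1, and all 8 were well above background in both channels on every array. Their summed signal was 585015 to 910371 units in the follistatin channel and 608764 to 921172 units in the untreated channel. In the order named, the mean log2 ratios of these markers were 0.077, -0.34, 0.12, -0.15, -0.46, -0.55, 0.30 and 0.23. Single arrays ran from -0.87 to 1.75 for Des. Of 4 fibroblast markers Pdgfra alone was well above background, at 223 to 502 units in follistatin-treated and 219 to 279 units in untreated cells. The summed signals of 4 markers each were 134 to 209 against 141 to 177 units for macrophages, 62.3 to 76.4 against 71.1 to 108 units for endothelial cells and 61.9 to 108 against 53.4 to 94.4 units for adipocytes, follistatin before untreated. Csf1r and Cd68 of the macrophage markers and Tek of the endothelial ones were well above background in both channels on 4 of 4 arrays, and of the adipocyte markers Cidec was so on 2 arrays in the follistatin and 3 in the untreated channel and Fabp4 on 0 and 1. Their part in the results was not tested. Ptprc, Emr1, Pecam1, Cdh5, Kdr, Adipoq, Plin1, Thy1, Tcf21 and Col15a1 were well above background on no array in either channel.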

How the data were processed

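Expression was measured on 4 two-colour Agilent whole mouse genome arrays. The intensity values are deposited output of Agilent's Feature Extraction software. The submitters' processing notes give 10.7.3.1 as its version, but the array of replicate 4 carries 10.10.1.1, per the file headers. In the processed signals the software had subtracted background and normalized the dyes of each array, per the file headers. The log10 ratio of Cy5 over Cy3 in the deposited files was used only to check direction. The p-value of each spot in the deposited files comes from the same software. The authors' deposited table of log2 values matched the log2 of Cy3 over Cy5 processed signals (slope 1, r = 1 over 41174 probes), with column medians of -0.163, 0.17, 0.133 and 0.107. Gene names stand in the file of replicate 4, and the same spots were on all arrays. Positions are in mm9 per the file headers.

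Of 45018 spots, 43379 were not controls. Outlier spots, by either of the software's 2 marks, were dropped (85 to 142 an array), spots of a probe were averaged, and log2 processed ratios were tested against 0 with limma 3.58.1 in R 4.3.3, with Benjamini-Hochberg adjustment over 27011 probes and a threshold of 0.05. Array medians over the tested probes lay between -0.018 and 0.0303. The share of spots well above background was 61.1% to 65.2% in the follistatin and 61.4% to 69.4% in the untreated channel, and 4 arrays limit the precision of every value. For the lists, symbols were updated through a RefSeq table of GRCm38.p6 by accession for 27479 probes and by symbol for 6157. Named genes were all probes of the 5 members. From each list, read by its brightest probe for each gene, they included S100a10, Anxa2, Lrp1, Plgrkt, Mrc2, Serpinh1 and the 2 highest and 2 lowest means. For each member they were also the 3 genes with the closest ratios. Of the genes so chosen, 2 are not reported here. The members and lists were chosen with earlier results of these data known. Alternatives were median centring, normexp and loess, the authors' table, other filters, 1 probe for each gene, averaging of replicates 2 and 3, leaving out each replicate and the methods' t-test. The fit was tested on simulated data. p-values measure the spread between these arrays, which the labels call biological replicates.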

Additional observations from a re-analysis of the deposited data

Results flagged for a closer look

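Over 27 sets of 4 values (log2 ratios and log2 signals of each channel, for the 9 member probes measured on all arrays), Dixon's test set apart 2, and chance gives about 1 in 20. The untreated signal of the brighter Plau probe was 215 units on replicate 1, where the other 3 arrays had 989 to 1085 units. The untreated signal of the brighter Plaur probe was 1883 units on replicate 1, where the others had 2295 to 2316 units. In both cases the low untreated signal stood on the array with the highest or second highest ratio of that probe, and without replicate 1 the mean ratios were 0.45 for Plau (limma adjusted p = 0.268) and 0.40 for Plaur (adjusted p = 0.344).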

How the results depend on the processing

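Over 12 alternatives the 10 member probes gave 114 mean ratios, of which 106 kept the sign of the reported one and 8 did not, and limma or the methods' t-test called 0 member probes and 0 list genes in each. The sign turned for the bright Serpinf1 probe with normexp and loess (-0.066), on the authors' table, which keeps the spot of replicate 2 (-0.080), and without replicate 1 (-0.0080), the lowest of its leave-one-out values, which reached 0.094 without replicate 3. It turned for the other Serpinf1 probe with normexp and loess (0.038), with replicates 2 and 3 averaged (0.0075), and without replicate 2 (0.033) or replicate 4 (0.25), with -0.30 as its lowest value, without replicate 1. The dim Plat probe was at 0.0034 without replicate 2 and at -0.39 without replicate 1. With normexp and loess the junction probe of Plau was at 0.27 and Serpine2 at 0.63, and the cause was not tested. The number of member probes higher at an unadjusted p under 0.05 was 2 without replicate 1, 3 without replicate 2, 3 without replicate 3 and 5 without replicate 4, where 9.41%, 4.82%, 3.88% and 14.2% of all tested probes were higher in those fits. It was 1 by the methods' t-test with its 1.6-fold minimum, where 3.78% of all were. The number of all probes called was 2 with the reported processing, 0 with normexp and loess, 0 with both channels required above background, 0 with replicates 2 and 3 averaged and 0 to 0 when any 1 replicate was left out. The methods' t-test called 2, of which 1 was higher and 1 lower, whereas the 2 called with the reported processing were both lower. The reported fit pairs the channels of each array through their ratio, and the methods' t-test is its unpaired counterpart. Of the member probes, the junction probe of Plau alone had a spot not well above background, the untreated one of replicate 1.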
